A study of Mus musculus with 36 samples.

Results

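The pyruvate dehydrogenase complex of the liver was examined through the transcripts of 10 genes, chosen by symbol from the table of gene counts: the kinases Pdk1, Pdk2, Pdk3 and Pdk4, the phosphatases Pdp1 and Pdp2, and the subunits Pdha1, Pdhb, Dlat and Dld. All 10 were found among the 38283 genes in the table. Livers came from 36 male mice on the C57Bl/6J strain aged 16 weeks, which were either wild-type or heterozygous for a germline knock-in allele of Pik3r1 that cuts the protein short (WT/Y657* mice). Each genotype was sampled in 3 states, with 6 mice per group: chow at will, a 16 h fast, or a 16 h fast ended by 6 h of chow. RNA was read as stranded total RNA in single reads of 50 bases. Pik3r1 encodes the regulatory subunit of phosphoinositide 3-kinase, which carries the insulin signal, and the allele is present in every tissue, so that a difference in liver can arise in the liver or outside it. The Pik3r1 transcript, in which the counts of both alleles are summed, was at 93.3 ± 8.52 CPM in fasted wild-type and 96.5 ± 15.2 CPM in fasted WT/Y657* livers (mean ± SD, n = 6; CPM, counts scaled for library size). It was at 135 ± 14.1 and 139 ± 25.4 CPM in fed and 126 ± 7.95 and 148 ± 16.4 CPM in refed livers of these genotypes, and does not check the genotype labels. Total counts per liver ranged from 8839488 to 19542775.

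Pyruvate dehydrogenase turns pyruvate into acetyl-CoA inside mitochondria, and so commits carbon from glucose to oxidation or to the synthesis of fat. The kinases phosphorylate the E1 alpha subunit and switch the complex off, and the phosphatases remove the phosphate and switch it on again. In fasting, higher Pdk4 is a well-known response of liver and muscle that spares pyruvate for glucose synthesis, and insulin lowers it. Transcript levels do not show protein amount, phosphorylation or enzyme activity, none of which is analysed here.

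All 10 genes passed the filter on low counts and were tested with 13945 genes in all by edgeR's quasi-likelihood test, with p-values adjusted by the Benjamini-Hochberg method and a threshold of 0.05. Levels were compared between genes only as RPKM, that is CPM divided by the kilobases of exon. Over all 36 livers, the subunits Pdha1 (39.2 ± 4.46 RPKM), Dld (35.04 ± 3.39) and Pdhb (28.2 ± 8.33) were the most abundant of the 10 transcripts. Next in RPKM came Pdk2 (13.1 ± 2.50), Pdk1 (10.9 ± 3.45), Dlat (9.71 ± 1.57) and Pdp2 (7.66 ± 1.58). Pdk4 followed at 2.76 ± 2.91 RPKM, above Pdp1 (0.372 ± 0.148) and Pdk3 (0.221 ± 0.126). Neighbours in this order had overlapping ranges, and the means of Pdha1 and Dld, Dld and Pdhb, Pdk2 and Pdk1, Pdk1 and Dlat, and Pdk4 and Pdp1 were no further apart than the larger of their SDs. The order held over all livers and not in each group: in fasted wild-type livers the mean of Pdp2 (10.2 RPKM) was above that of Dlat (9.23 RPKM). The deposited position of Pdp2 ends before the reference gene does, so its RPKM may be too low, and its place beside Dlat is not settled. Pdk3 had 1 to 19 counts per liver and Pdp1 had 7 to 49, so small differences in these were not detectable at this depth.

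**Figure D1:**
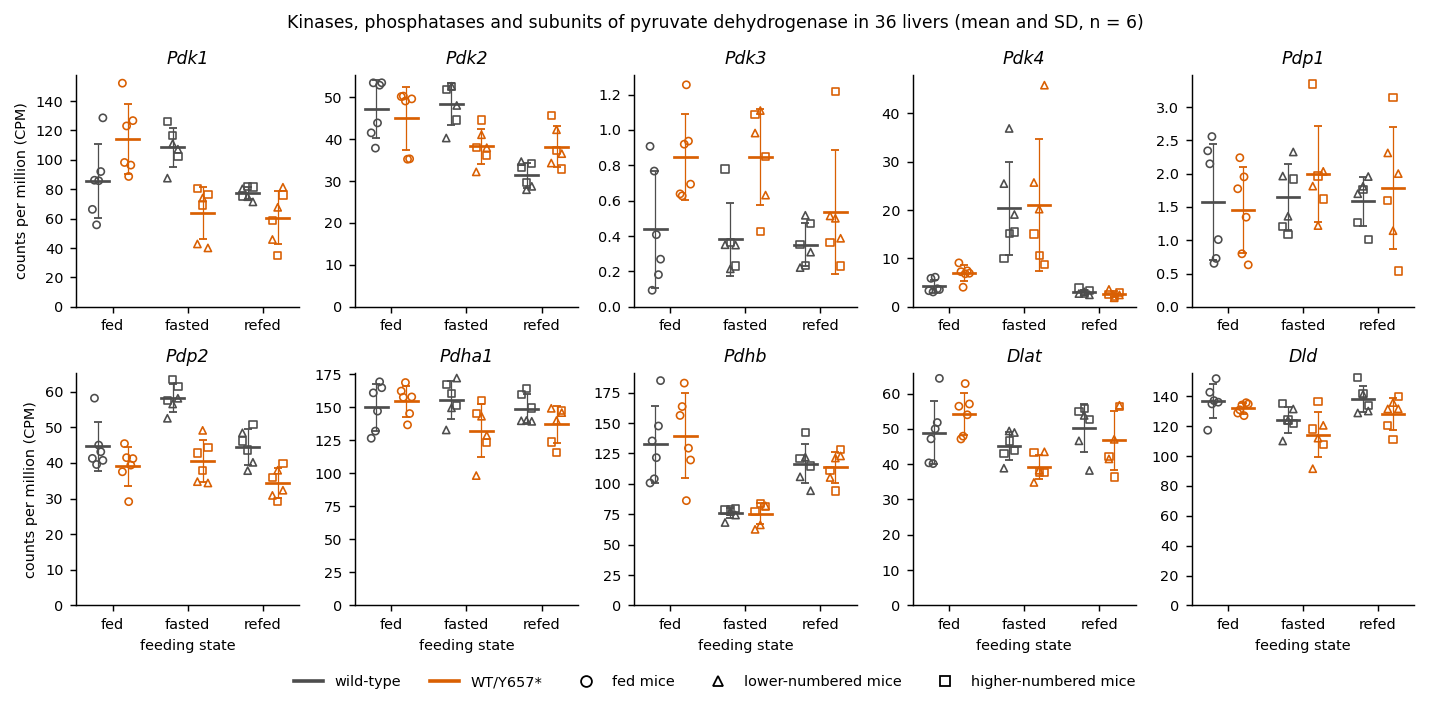
CPM of the 10 transcripts in each of 36 livers by feeding state (grey, wild-type; orange, WT/Y657*; symbols, series of mouse numbers; lines, mean and SD of 6 mice). Mean Pdk4 was highest in fasted livers of both genotypes, and Pdk1 and Pdp2 of fasted WT/Y657* livers lay below all fasted wild-type livers.

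Promoter sequence was matched by symbol in RefSeq (GRCm38.p6) for 9 of the 10 genes, all but Pdp1. The windows of 4 genes are shown because they moved with feeding state in different ways: Pdk4 rose with fasting, Pdhb fell, and Pdk2 and Pdp2 both fell with refeeding in wild-type mice. Each runs from 250 bases before to 50 bases after the annotated start, 5′ to 3′ on the gene's own strand. Pdk4 (chr6:5496229-5496528), Pdk2 (chr11:95041322-95041621) and Pdhb (chr14:8172943-8173242) are on the minus strand and Pdp2 (chr8:104591222-104591521) on the plus strand.
Pdk4: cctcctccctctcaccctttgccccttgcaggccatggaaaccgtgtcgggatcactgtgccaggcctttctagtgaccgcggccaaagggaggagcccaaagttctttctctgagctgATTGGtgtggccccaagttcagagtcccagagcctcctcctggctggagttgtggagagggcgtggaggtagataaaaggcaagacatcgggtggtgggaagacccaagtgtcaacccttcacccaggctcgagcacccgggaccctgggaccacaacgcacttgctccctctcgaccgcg
Pdk2: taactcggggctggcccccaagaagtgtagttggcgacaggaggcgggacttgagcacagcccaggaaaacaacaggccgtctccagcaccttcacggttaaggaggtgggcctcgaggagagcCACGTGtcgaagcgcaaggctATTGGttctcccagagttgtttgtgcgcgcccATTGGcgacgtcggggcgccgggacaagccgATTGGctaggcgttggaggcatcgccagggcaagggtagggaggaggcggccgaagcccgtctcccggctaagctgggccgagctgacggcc
Pdp2: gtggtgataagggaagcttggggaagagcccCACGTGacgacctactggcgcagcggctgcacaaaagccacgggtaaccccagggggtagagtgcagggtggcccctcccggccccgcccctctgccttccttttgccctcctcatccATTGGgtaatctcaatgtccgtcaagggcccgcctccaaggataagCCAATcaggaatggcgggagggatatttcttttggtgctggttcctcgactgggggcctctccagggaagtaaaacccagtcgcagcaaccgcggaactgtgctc
Pdhb: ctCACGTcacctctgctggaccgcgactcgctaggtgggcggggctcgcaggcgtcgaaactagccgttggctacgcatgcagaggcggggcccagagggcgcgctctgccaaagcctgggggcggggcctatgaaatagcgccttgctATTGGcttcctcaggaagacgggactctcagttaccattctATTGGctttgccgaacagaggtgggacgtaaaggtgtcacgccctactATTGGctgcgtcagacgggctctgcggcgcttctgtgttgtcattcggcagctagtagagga
Capitals mark matches to any of 5 motifs searched on both strands. These were the forkhead core TGTTTAC (in 3.65% of 32851 RefSeq promoter windows of 300 bases), the nuclear receptor half-site AGGTCA (16.3%), the core of the hypoxia response element ACGTG (19.6%), the CCAAT box CCAAT (37.4%) and the E-box CACGTG (7.15%), which contains the hypoxia core on both strands. The forkhead core and the half-site were not in the windows of the 9 genes. Pdk2 and Pdp2 both held the E-box, beginning 126 and 219 bases before the start. Pdk2 has a second RefSeq start, with its window at chr11:95040826-95041125, which held none of the 5 motifs. Of CCAAT boxes, Pdk4 held 1, Pdp2 held 2, and Pdhb and the Pdk2 window shown held 3 each. Pdhb also held 1 hypoxia core at the far end of its window. Among windows not shown, Pdk3 held 1 CCAAT box and 1 hypoxia core, and Dld held 2 CCAAT boxes. These are matches of letters and say nothing of binding.

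The feeding comparisons were asked first of the kinases. Pdk4 (ENSMUSG00000019577; chr6:5483351-5496309 in GRCm38) is the kinase known to respond to fasting. In fed wild-type livers it ranged from 3.07 to 6.12 CPM (median 3.65), and in fasted wild-type livers from 9.95 to 36.9 CPM (median 17.3). In fed WT/Y657* livers it ranged from 4.05 to 9.08 CPM (median 7.10), and in fasted WT/Y657* livers from 8.71 to 45.8 CPM (median 17.6). All 6 fasted wild-type livers lay above every fed one, and 5 of 6 fasted WT/Y657* livers did. Pdk4 rose with fasting by a log2 fold change of 2.26 (SE 0.32, adjusted p = 1.65e-06, edgeR) in wild-type and 1.61 (SE 0.31, adjusted p = 0.00011, edgeR) in WT/Y657* mice. The 2 responses were not called different (log2 difference -0.65, SE 0.44, adjusted p = 0.44, edgeR). As counts come from whole liver, more RNA per cell and more cells that carry a transcript cannot be told apart.

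With refeeding, Pdk4 was at 2.47 to 3.89 CPM (median 2.92) in wild-type and 1.86 to 3.60 CPM (median 2.50) in WT/Y657* livers. Every refed liver lay below every fasted liver of its genotype. The log2 fold change from fasted to refed was -2.73 (SE 0.33, adjusted p = 1.38e-07, edgeR) in wild-type and -3.02 (SE 0.34, adjusted p = 2.61e-08, edgeR) in WT/Y657* mice. Against fed livers of the same genotype, refed livers had less Pdk4 in WT/Y657* mice (log2 -1.42, SE 0.34, adjusted p = 0.0024, edgeR), with all 6 refed below all 6 fed. In wild-type mice the value was -0.47 (SE 0.35, adjusted p = 0.343, edgeR), with overlapping groups. Whether these 2 values differ between genotypes was not tested. Pdk4 was not called between genotypes in any state; in the fed state it was 0.70 higher in WT/Y657* mice on the log2 scale (SE 0.33, adjusted p = 0.266, edgeR), with 5 of 6 above all wild-type livers.

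Mouse numbers fell into a lower series and a higher series among fasted and refed mice, with 3 mice of each genotype per state in each, and the fed mice had numbers of neither. The higher series holds separate runs of numbers for fasted and for refed mice, so it is not a single block. In fasted livers, Pdk4 in the lower series was at 19.1 to 36.9 CPM in wild-type and 20.2 to 45.8 CPM in WT/Y657* mice. In the higher series it was at 9.95 to 15.5 and 8.71 to 15.1 CPM. The 2 series did not overlap in fasted livers of either genotype. Compared over both genotypes, a split examined after the values had been seen, Pdk4 was higher in the lower series by 1.22 on the log2 scale (SE 0.20, adjusted p = 0.00683, edgeR). It was the only 1 of the 9 members tested there to be called, and 0.279% of 13604 genes were called. In refed livers the difference was -0.09 (SE 0.27, adjusted p = 0.988, edgeR), with none of those 9 called and 0.14% of all genes called. Pdk3 was below the filter of this fit. The ratio of mean Pdk4 in fasted to fed livers was 6.34 in the lower and 3.15 in the higher series of wild-type mice, and 4.41 and 1.65 in WT/Y657* mice. What the number series stand for is not given in the labels, and as fed mice come from neither, feeding state and number series cannot be told apart in comparisons with fed mice. The same holds for refeeding among higher-numbered mice, where each state has its own run of numbers. The index of the sequencing libraries followed feeding state almost as closely: 11 of 12 fasted livers carried the same second index and no fed or refed liver did. In refed livers it also followed genotype in part. All 6 wild-type refed livers carried 1 second index, which 3 WT/Y657* refed livers shared. The 3 higher-numbered WT/Y657* refed livers carried another, found in no other liver, so index and genotype cannot be told apart among higher-numbered refed mice.

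**Figure D2:**
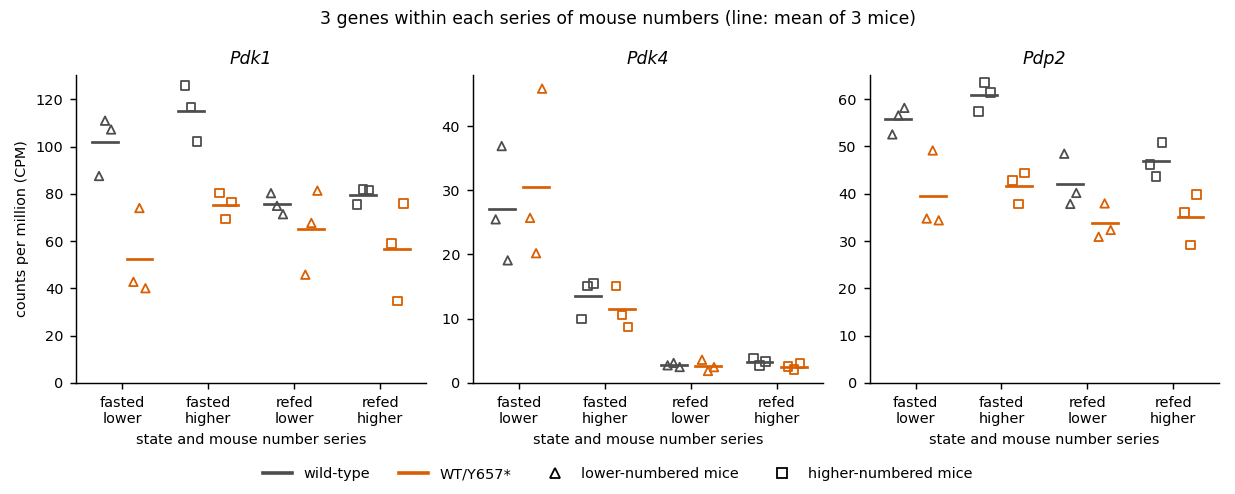
CPM of Pdk1, Pdk4 and Pdp2 in fasted and refed livers within each series of mouse numbers (3 mice per genotype; line, mean). Fasted Pdk4 was higher in the lower series in both genotypes, while fasted Pdp2 and Pdk1 were lower in WT/Y657* than in wild-type livers within both series.

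Pdk1 (ENSMUSG00000006494; chr2:71873224-71903858) encodes a kinase best known from the response to low oxygen. In fed livers it was at 55.8 to 129 CPM (median 86.0) in wild-type and 88.7 to 152 CPM (median 111) in WT/Y657* mice. In fasted livers it was at 87.6 to 126 CPM (median 109) in wild-type and 40.1 to 80.4 CPM (median 71.6) in WT/Y657* mice, so the fasted genotypes did not overlap. Among fasted WT/Y657* livers, 2 of the lower-numbered mice were lowest, at 40.1 and 42.8 CPM, and the other 4 were at 69.3 CPM or above. The genotype difference in fasted mice was -0.77 (SE 0.19, adjusted p = 0.00777, edgeR). Within the lower series the mean in wild-type was 1.95 times that in WT/Y657* livers and within the higher series 1.52 times, with no overlap in either; taken alone, the higher series did not pass (log2 -0.61, adjusted p = 0.311, edgeR). In the higher series the fasted genotypes also had separate runs of mouse numbers.

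Fasted WT/Y657* livers all had less Pdk1 than fed ones, with a log2 fold change of -0.84 (SE 0.19, adjusted p = 0.000986, edgeR), which the higher-numbered mice alone did not pass (log2 -0.60, adjusted p = 0.0706, edgeR). In wild-type mice the value was 0.34 (SE 0.19, adjusted p = 0.186, edgeR). The difference between these responses passed the test at -1.18 (SE 0.27, adjusted p = 0.0113, edgeR), and was -1.02 (adjusted p = 0.185, edgeR) with higher-numbered fasted and refed mice alone. Refed livers were at 71.4 to 81.8 CPM (median 77.9) in wild-type and 34.7 to 81.4 CPM (median 63.3) in WT/Y657* mice. Refed WT/Y657* livers remained below all fed ones (log2 -0.91, SE 0.19, adjusted p = 0.000625, edgeR). Refed against fed wild-type livers overlapped (log2 -0.15, SE 0.19, adjusted p = 0.617, edgeR), and the difference between genotypes was not tested. In wild-type mice all 6 refed livers lay below all 6 fasted ones, yet the change missed the threshold (log2 -0.48, SE 0.19, adjusted p = 0.0547, edgeR), which it passed under DESeq2 and under edgeR's likelihood ratio test.

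Pdk2 (ENSMUSG00000038967; chr11:95026258-95041354) encodes the kinase expressed most widely among tissues. In wild-type livers it was at 37.9 to 53.5 CPM (median 48.4) when fed, 40.3 to 52.7 CPM (median 50.0) when fasted and 27.9 to 34.6 CPM (median 31.4) when refed. Every refed wild-type liver lay below every fed and every fasted one. In WT/Y657* livers it was at 35.2 to 50.3 CPM (median 49.4) when fed, 32.2 to 44.6 CPM (median 38.0) when fasted and 32.9 to 45.7 CPM (median 36.9) when refed, with overlap between all 3 states. Refeeding lowered Pdk2 in wild-type mice (log2 -0.62, SE 0.10, adjusted p = 1.66e-05, edgeR), and refed livers also lay below fed ones (log2 -0.58, SE 0.10, adjusted p = 5.9e-05, edgeR). In WT/Y657* mice the refeeding value was below 0.01 in size (SE 0.10, adjusted p = 0.977, edgeR), and the difference between genotypes in this response was 0.62 (SE 0.15, adjusted p = 0.0218, edgeR). That call did not hold without 1 of the WT/Y657* fasted mice (log2 0.57, adjusted p = 0.0514, edgeR) or within either series alone (0.66 and 0.59).

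In fasted mice Pdk2 was lower in WT/Y657* than in wild-type livers (log2 -0.34, SE 0.10, adjusted p = 0.0269, edgeR), with 4 of 6 below all wild-type livers. The call was lost when any 1 of 5 fasted mice was left out (3 wild-type, 2 WT/Y657*; highest adjusted p = 0.0880, edgeR), when libraries were scaled by total count alone, and within the lower or higher series alone (log2 -0.35 and -0.33, highest adjusted p = 0.355, edgeR). Pdk3 (ENSMUSG00000035232; chrX:93764607-93832201), a kinase with little expression in liver, was at 0.0934 to 0.907 CPM in fed wild-type livers and no higher than 1.26 CPM in any liver. Its largest genotype value was 1.14 in fasted mice (SE 0.41, adjusted p = 0.0612, edgeR), where 4 of 6 WT/Y657* livers lay above all wild-type livers. It passed under edgeR's likelihood ratio test (adjusted p = 0.0414) and without the highest wild-type fasted liver (log2 1.46, adjusted p = 0.0262, edgeR).

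**Figure D3:**
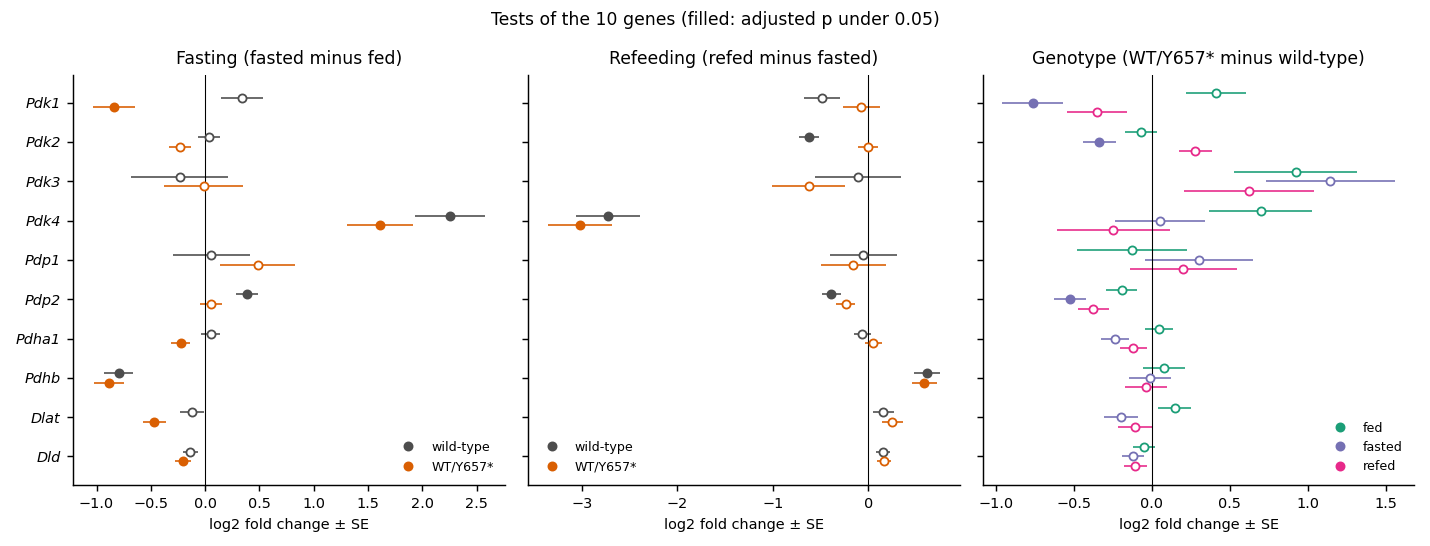
Log2 fold changes with standard errors for the 10 genes with fasting, with refeeding and between genotypes (filled points, adjusted p under 0.05 by edgeR; open points, not called). Pdk4 and Pdhb were called in opposite directions in both genotypes, and 3 genes were called between genotypes, all in fasted mice.

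As a description without a test, the summed RPKM of the 4 kinases was divided among them in each liver. Pdk4 made up 2.94% to 6.50% of the sum in fed wild-type livers (median 4.22%) and 7.93% to 25.3% in fasted ones (median 14.8%). In WT/Y657* livers its share was 3.51% to 8.13% when fed (median 6.73%) and 10.3% to 42.9% when fasted (median 17.96%). With the longest transcript in place of all exons, the mean share was lower in every group. The share of 42.9% was that of the liver with the most Pdk4 and the least Pdk1 among fasted livers. Within each genotype the fed and fasted shares did not overlap, and Pdk1 and Pdk2 together still held the larger part of kinase RPKM in every liver. The summed kinase level was 31.4 to 41.5 RPKM (median 35.1) in fasted wild-type and 23.4 to 30.4 RPKM (median 26.6) in fasted WT/Y657* livers, again without overlap. Its mean was 27.3 and 31.2 RPKM in fed and 20.9 and 20.8 RPKM in refed livers of the 2 genotypes, in the same order, with overlap. The log2 ratio of summed kinase to summed phosphatase RPKM was 1.73 ± 0.17 in fasted wild-type and 1.82 ± 0.23 in fasted WT/Y657* livers (mean ± SD, n = 6), within each other's spread. In refed livers it was 1.36 ± 0.06 and 1.69 ± 0.13, and the refed groups did not overlap. The summed phosphatase level of refed livers was 8.17 ± 0.81 in wild-type and 6.44 ± 0.54 RPKM in WT/Y657* mice, with overlap. Of this, Pdp2 made up 7.82 and 6.04 RPKM, values that may be too low. Pdp2 was not called between genotypes in refed mice (adjusted p = 0.198, edgeR). In fed livers the log2 ratio was 1.73 ± 0.31 and 2.11 ± 0.23, with overlap.

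**Figure D4:**
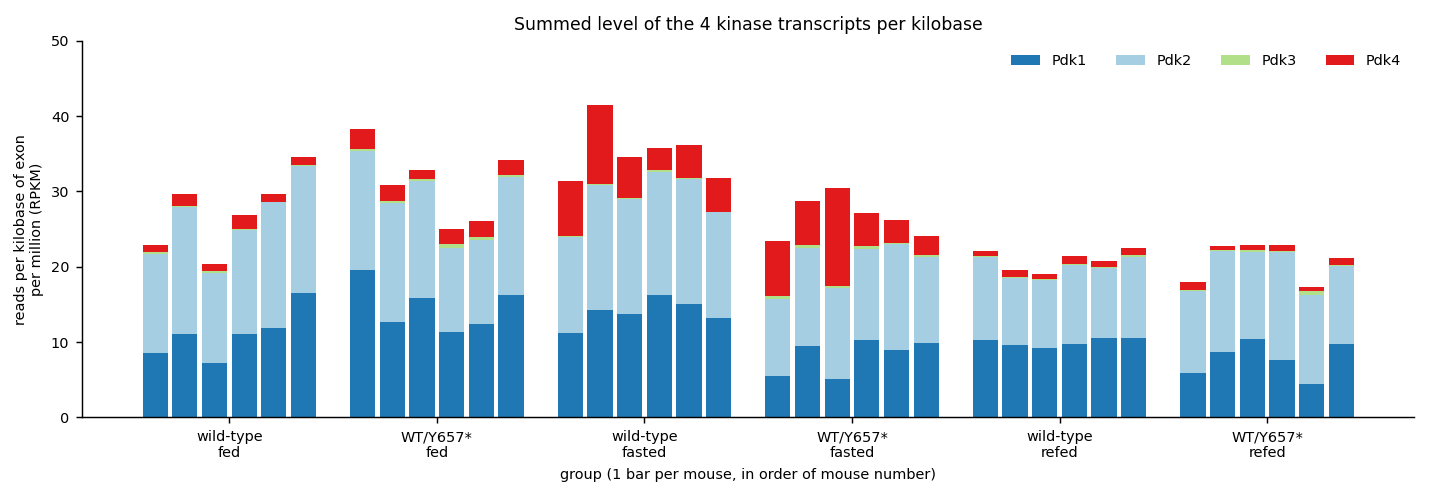
RPKM of the 4 kinases, stacked, with 1 bar per liver. The Pdk4 part was widest in fasted livers, and the whole bar was lower in all fasted WT/Y657* than in all fasted wild-type livers.

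Of the phosphatases, Pdp2 (ENSMUSG00000048371; chr8:104591451-104599026) was the one with appreciable RNA; it encodes the form known to respond to insulin. In fasted livers it was at 52.6 to 63.5 CPM (median 57.8) in wild-type and 34.4 to 49.2 CPM (median 40.3) in WT/Y657* mice, with no overlap. The genotype difference in fasted mice was -0.52 (SE 0.10, adjusted p = 0.000573, edgeR). Pdp2 was lower in WT/Y657* livers by similar amounts within the lower and the higher series (wild-type means 1.41 and 1.46 times those of WT/Y657* livers), although neither passed alone with 3 mice a group (highest adjusted p = 0.0699, edgeR). In fed livers it was at 39.6 to 58.2 CPM (median 42.2) in wild-type and 29.1 to 45.4 CPM (median 40.3) in WT/Y657* mice. Fasting raised it in wild-type mice (log2 0.38, SE 0.10, adjusted p = 0.00299, edgeR) and refeeding lowered it (log2 -0.39, SE 0.10, adjusted p = 0.00298, edgeR). With the lower-numbered fasted and refed mice alone the fasting value was 0.32 (adjusted p = 0.0919, edgeR), and refeeding did not pass within either series (highest adjusted p = 0.0777, edgeR). Wild-type means in fasted and refed mice were 55.8 and 42.2 CPM in the lower series. They were 60.8 and 46.9 CPM in the higher series.

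In WT/Y657* mice, Pdp2 had a value of 0.05 with fasting (SE 0.10, adjusted p = 0.727, edgeR) and -0.24 with refeeding (SE 0.10, adjusted p = 0.0716, edgeR). Neither response was called different between genotypes (fasting -0.33, SE 0.14, adjusted p = 0.187; refeeding 0.15, SE 0.14, adjusted p = 0.679, edgeR). In refed mice Pdp2 was at 37.9 to 50.9 CPM in wild-type and 29.2 to 39.9 CPM in WT/Y657* livers, with 4 of 6 below all wild-type livers and an adjusted p of 0.198 (edgeR). Pdp1 (ENSMUSG00000049225; chr4:11958184-11966452), the calcium-sensitive phosphatase prominent in muscle, was at 0.538 to 3.35 CPM over all livers and was not called in any of the 11 comparisons.

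The subunits build the complex itself: Pdha1 and Pdhb encode E1, Dlat the E2 core and Dld the E3 dehydrogenase, which other 2-oxo acid dehydrogenases share. Pdhb (ENSMUSG00000021748; chr14:8165996-8173025) was at 101 to 185 CPM (median 128) in fed and 68.2 to 79.8 CPM (median 77.9) in fasted wild-type livers. In WT/Y657* livers it was at 86.2 to 183 CPM (median 143) when fed and 62.6 to 83.9 CPM (median 79.3) when fasted. All fasted livers lay below all fed livers of their genotype. Pdhb fell with fasting by 0.80 on the log2 scale in wild-type (SE 0.14, adjusted p = 2.08e-05, edgeR) and by 0.89 in WT/Y657* mice (SE 0.14, adjusted p = 4.3e-06, edgeR). With refeeding it reached 94.4 to 142 CPM (median 118) in wild-type and 94.0 to 128 CPM (median 116) in WT/Y657* livers, above every fasted liver. These changes were 0.62 (SE 0.14, adjusted p = 0.000646, edgeR) and 0.59 (SE 0.14, adjusted p = 0.000987, edgeR). Each passed in 1 of the 2 number series: wild-type refeeding gave 0.54 (adjusted p = 0.103, edgeR) in the lower and WT/Y657* refeeding 0.46 (adjusted p = 0.186, edgeR) in the higher series.

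The other subunits moved less. Dlat (ENSMUSG00000000168; chr9:50634633-50659780) fell with fasting in WT/Y657* mice, from 47.1 to 62.8 CPM (median 55.2) in fed to 34.8 to 43.5 CPM (median 38.0) in fasted livers, without overlap (log2 -0.47, SE 0.11, adjusted p = 0.000868, edgeR). In wild-type mice its value was -0.12 (SE 0.11, adjusted p = 0.429, edgeR), and the responses were not called different (adjusted p = 0.197, edgeR). Dld (ENSMUSG00000020664; chr12:31331277-31351453) was called in fasted WT/Y657* mice at -0.21 (SE 0.07, adjusted p = 0.0248, edgeR), with 5 of 6 fasted livers below all fed ones. This was lost without either of 2 WT/Y657* fasted mice (highest adjusted p = 0.0962, edgeR), with only these groups in the fit, and in the higher series alone (adjusted p = 0.297, edgeR). With fasting in wild-type mice Dld had a value of -0.14 (SE 0.07, adjusted p = 0.151, edgeR). Its responses were not called different between genotypes (log2 difference -0.07, adjusted p = 0.758, edgeR). Pdha1 (ENSMUSG00000031299; chrX:160122209-160138413) was called in fasted WT/Y657* mice at -0.23 (SE 0.09, adjusted p = 0.046, edgeR), with 3 of 6 livers below all fed ones. That call was lost without any 1 of 3 fasted or 4 fed WT/Y657* mice (highest adjusted p = 0.167, edgeR), under edgeR's likelihood ratio test, under DESeq2's size factors, with only these groups in the fit, and in the higher series alone (highest adjusted p = 0.363, edgeR). With fasting in wild-type mice Pdha1 had a value of 0.05 (SE 0.09, adjusted p = 0.703, edgeR). Its responses were not called different either (log2 difference -0.28, adjusted p = 0.209, edgeR). Exons of Pdha1 overlap 603 bases of Map3k15 on the opposite strand, and whether reads were counted by strand is not given in the sources used here. The deposited position of Pdha1 starts well before the gene and is the one also given for Map3k15, which is counted under its own name. Pdha2, a copy of Pdha1 without introns, had no count in any liver.

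Counted over the 10 genes, fasting in wild-type mice called 3 (Pdk4 and Pdp2 higher, Pdhb lower) where 32% of all genes were called, 14.5% higher and 17.5% lower. In WT/Y657* mice fasting called 6, Pdk4 higher and Pdk1, Pdhb, Dlat, Dld and Pdha1 lower, against 32.9% of all genes (15.2% higher, 17.7% lower). Refeeding called 4 in wild-type mice (Pdhb higher; Pdk2, Pdk4 and Pdp2 lower) against 30.2% of all genes, 16.5% higher and 13.7% lower. It called 2 in WT/Y657* mice, Pdhb higher and Pdk4 lower, against 31.3% (17.1% higher, 14.2% lower). Refed and fed livers differed in 1 gene in wild-type mice, Pdk2, which was lower, against 27.5% of all genes (13.2% higher, 14.3% lower). In WT/Y657* mice they differed in 2, Pdk1 and Pdk4, both lower, against 26.1% (13% higher, 13.1% lower). Whether refed against fed values differ between genotypes was not tested for any gene. Comparisons within a genotype share groups and are not independent. The median log2 fold change of the 10 genes with fasting was 0.04 in wild-type animals and -0.22 in WT/Y657* mice, beside 0.01 and -0.01 over all genes tested.

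Between genotypes, 3 of the 10 genes were called in fasted mice, Pdk1, Pdk2 and Pdp2, all lower in WT/Y657* livers, against 13.1% of all genes (6.43% higher, 6.63% lower). Their median over the 10 genes was -0.16, and 0.00 over all genes. In fed mice edgeR called 0 of 10, where 2.37% of all genes were called, and 3 had an unadjusted p under 0.05 (Pdk1, Pdk3 and Pdk4), as had 2423 of the 13945 genes. In refed mice edgeR also called 0 of 10, where 0.0287% of all genes were called, and 2 had an unadjusted p under 0.05 (Pdk2 and Pdp2), as had 1329 of the 13945 genes. Leaving out 1 mouse moved the number of all genes called from 330 to as few as 68 and to more than 2 times 330 in fed mice, and from 1821 to between 1168 and 2003 in fasted mice. Of the 10 members, DESeq2 and edgeR's likelihood ratio test also called 0 in fed and 0 in refed mice. The difference between genotypes in the fasting response was called for 1 gene, Pdk1, against 4.35% of all genes, and that in the refeeding response for 1 gene, Pdk2, against 2.06%.

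Further genes of the complex and its cofactors were counted as a list of 7. For this and the lists below, the shares called over all genes were 32% (wild-type) and 32.9% (WT/Y657*) with fasting, 30.2% and 31.3% with refeeding, and 13.1% between genotypes in fasted mice, against 2.37% in fed mice. Fasting called 3 of the 7 in wild-type mice (1 higher and 2 lower), and 2 in the WT/Y657* genotype (1 up, 1 down). Pdpr, a regulatory subunit of the phosphatase, was the one higher in each (log2 0.48, SE 0.09 and 0.29, SE 0.09). Refeeding called 3 in wild-type mice (2 higher and 1 lower), and 6 in the WT/Y657* genotype (5 up, 1 down), with Pdpr lower in each (log2 -0.55, SE 0.09).

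Among 12 genes of the pyruvate node, which make, carry or use pyruvate, fasting called 9 in wild-type mice (6 higher and 3 lower), and 8 in the WT/Y657* genotype (5 up, 3 down). Higher were the carrier subunit Mpc2 (log2 0.61, SE 0.08 in wild-type animals and 0.63, SE 0.08 in WT/Y657* mice), lactate dehydrogenase Ldha (1.01, SE 0.13 and 1.02, SE 0.13) and the monocarboxylate carrier Slc16a1 (1.20, SE 0.10 and 1.05, SE 0.10). Slc16a1 fell again with refeeding (log2 -1.30, SE 0.10 and -1.24, SE 0.10). Refeeding called 2 of the 12 in wild-type mice (1 higher and 1 lower), and 5 in the WT/Y657* genotype (3 up, 2 down). Between genotypes, 2 of the 12 were called in fasted mice: pyruvate carboxylase Pcx was lower in WT/Y657* livers (log2 -0.52, SE 0.13, adjusted p = 0.00492, edgeR) and Mpc2 higher (log2 0.31, SE 0.08, adjusted p = 0.00978, edgeR), each without overlap. In fed mice 1 was called, Mpc2, higher in WT/Y657* livers, and none in refed mice (edgeR; 0 with an unadjusted p under 0.05). Neither response of any of the 12 was called different between genotypes.

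Of 7 genes of the related 2-oxo acid dehydrogenases, fasting called 4 in wild-type mice (all higher), and 4 in the WT/Y657* genotype (3 up, 1 down). The one with the smallest p was Ppm1k, phosphatase of the branched-chain dehydrogenase, which rose with fasting by 0.99 (SE 0.12) in wild-type and 0.54 (SE 0.12) in WT/Y657* mice and was lower in fasted WT/Y657* livers (log2 -0.46, SE 0.12, adjusted p = 0.00804, edgeR), with overlap. Its fasting responses were not called different (adjusted p = 0.126, edgeR). The 15 PPARa-responsive fasting genes, targets of the fatty acid receptor that also acts on Pdk4, were listed for their known rise in fasting and with earlier results of these data known, so that their rise is no finding and only gives a scale. All 15 rose in both genotypes, with medians of 1.60 in wild-type animals and 1.34 in WT/Y657* mice. Cpt1a, for the entry of fatty acids into mitochondria, rose by 1.60 (SE 0.11) and 1.34 (SE 0.11), and Plin2, a lipid droplet coat protein, by 1.76 (SE 0.12) and 1.23 (SE 0.11). With refeeding, 8 of the 15 fell in wild-type animals and 6 in WT/Y657* mice, and 12 and 11 were higher in refed than in fed mice (13.2% and 13% of all genes), unlike Pdk4.

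Of 10 genes that respond to FOXO1 or insulin, refeeding called 9 in wild-type mice (2 higher and 7 lower), and 8 in the WT/Y657* genotype (2 up, 6 down). Insulin receptor substrate Irs2 fell in both genotypes (log2 -1.41, SE 0.29 and -1.52, SE 0.29), as did the gluconeogenic Pck1 (-1.08, SE 0.22 and -1.09, SE 0.22). Fasting called 3 of the 10 in wild-type mice (1 higher and 2 lower), and 7 in the WT/Y657* genotype (4 up, 3 down). Between genotypes, 3 of the 10 were called in fasted mice (1 higher, 2 lower). Srebf1, a regulator of lipid synthesis, was the one gene of this list called in the differences between responses, at -1.24 (SE 0.27, adjusted p = 0.00775, edgeR) for fasting and 1.04 (SE 0.27, adjusted p = 0.0356, edgeR) for refeeding. Among 9 regulators tied to Pdk4, 3 were lower in fasted WT/Y657* livers: the fatty acid receptor Ppara (log2 -0.55, SE 0.10), the glucocorticoid receptor Nr3c1 (-0.38, SE 0.07) and Foxo3 (-0.34, SE 0.09). In fed mice 2 were lower in WT/Y657* livers, Foxo3 (-0.31, SE 0.09) and the receptor partner Rxra (-0.31, SE 0.06). The fasting response of the hepatocyte factor Hnf4a differed between genotypes (0.41, SE 0.12, adjusted p = 0.0333, edgeR). Ppara rose with fasting in wild-type and WT/Y657* mice (0.70, SE 0.10 and 0.50, SE 0.10), as did the coactivator Ppargc1a (0.67, SE 0.19 and 0.99, SE 0.19). In all, fasting called 4 of the 9 in wild-type mice (2 higher and 2 lower), and 6 in the WT/Y657* genotype (4 up, 2 down).

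Genes whose log2 CPM followed that of a member most closely over the 36 livers, among 12601 tested genes with a mean of at least 1 CPM, are given as a description; the 6 groups are shared by all points. For Pdk4 they were Clpx (Pearson r = 0.953), AU022252 (0.945) and Btg1 (0.932). For Pdk1 they were Galm (r = 0.861), Lipc (0.855) and Aldh2 (0.855), and for Pdk2 Parva (0.803), P2ry2 (0.779) and Sft2d2 (0.775). For Pdp2 they were Pank1 (r = 0.848), Ugt3a2 (0.843) and Tpm2 (0.820). Pdp1 reached no more than 0.602, with Pdgfra, then Znrd1 (0.589) and Itgam (0.580), and Pdk3 was below the level required.

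Markers were read for the tissue and for other cells it could hold. The 6 hepatocyte markers summed to 46066 to 88187 CPM per liver, led by Alb, and none was called between genotypes in any state. Several were called with feeding: fasting called Alb and Cps1 in wild-type and Alb and Hnf4a in WT/Y657* mice, and refeeding Alb and Hnf4a in wild-type and Hnf4a and Cps1 in WT/Y657* mice. Skeletal muscle, where Pdk4 is abundant, left little trace: its 4 markers summed to at most 1.93 CPM, led by Mylpf, with Ckm at 0 in 30 of 36 livers, Acta1 at 0 in 26 and Myh4 at 0 in 30. The 4 adipocyte markers, led by Cfd, summed to at most 11.03 CPM, with Adipoq at 0 in 24 livers, Plin1 at 0 in 30 and Lep at 0 in 35. They were at 2.68 to 11.03 CPM in fasted wild-type and 0.0702 to 3.85 CPM in fasted WT/Y657* livers. The 4 markers of exocrine pancreas, led by Pnlip, were at 0 to 1.98 CPM, with Amy2a5 at 0 in all 36 livers.

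Of the 4 stellate cell markers, Dcn, the most abundant, was higher in fed and fasted WT/Y657* livers; their sum was 301 to 360 CPM in fasted wild-type and 325 to 468 CPM in fasted WT/Y657* livers. Of the 4 endothelial markers, led by Stab2, 1 was called between genotypes in fasted mice (Lyve1, higher), and Stab2 and Kdr rose with fasting in wild-type mice and fell with refeeding in both genotypes, as did Lyve1 in WT/Y657* mice. Their sum was 240 to 286 CPM in fasted wild-type and 220 to 292 CPM in fasted WT/Y657* livers. The 3 macrophage markers in the table, led by Cd5l, summed to 178 to 341 and 183 to 293 CPM in these groups and were not called in any comparison. The 4 cholangiocyte markers, led by Spp1, summed to 23.1 to 46.8 and 17.6 to 48.7 CPM. Lymphocyte markers, led by Ptprc, summed to 14.7 to 24.5 and 16.7 to 28.8 CPM, with Cd3e at 0 in 7 of 36 livers, and erythroid markers, led by Alas2, to 203 to 354 and 213 to 282 CPM. Alas2 fell with fasting in both genotypes, and refeeding called Lrat and Reln in both, Des and Hba-a1 in wild-type and Hbb-b1 in WT/Y657* mice. Fasting also called the lymphocyte marker Ms4a1 (higher) in wild-type mice, and the cholangiocyte marker Krt19 and Lrat (both lower) in WT/Y657* mice. The fasting response of Ms4a1 was called different between genotypes. The part of any cell type in the feeding and genotype differences of the 10 genes was not tested.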

How the data were processed

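The table analysed is the one the authors deposited for 36 livers, with an expected count for each gene that was not normalised. The labels name Cuffdiff for alignment, featureCounts for counting and mm9 as build, yet the deposited gene positions cover the GRCm38 span (GENCODE M21) closely for 92.2% of matched genes, so GRCm38 was used for lengths and positions. Of counts above 0, 3.64% were not whole, and all were rounded. A second deposited table, of fitted counts, was not used.

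Group and mouse number came from the labels, and sex and heterozygosity from the study's methods. The fit was run under R 4.3.3 in edgeR 4.0.16, by filterByExpr with 6 groups, TMM scaling, 1 coefficient per group over 36 libraries, glmQLFit with robust dispersions and glmQLFTest, two-sided, with Benjamini-Hochberg adjustment over 13945 genes and a threshold of 0.05. The common biological coefficient of variation was 0.181. The log2 CPM used a prior count of 2, and RPKM the union of exons. Pairs of libraries within a group differed beyond sampling noise (chi-square per degree of freedom of at least 6.54).

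The members and gene lists were chosen with earlier results of these data known. From each list up to 4 genes with the smallest p in a comparison could be named, and for each kinase and phosphatase the 3 most like it. Alternatives were edgeR's likelihood ratio test, DESeq2 1.42.0, DESeq2's size factors, library size alone, no filter, at least 10 counts in every library, only the groups compared, number series as a covariate, leaving out each mouse, and other length corrections. Fits to 1 number series alone were chosen after seeing the data. Adgre1, a macrophage marker, was not matched by symbol.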

Additional observations from a re-analysis of the deposited data

Results flagged for a closer look

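Among the 60 sets of 6 livers formed by 10 genes and 6 groups, 3 held a liver far from the others; chance alone picks out about 1 in 20 such sets. Pdk3 stood at 0.779 CPM in 1 wild-type fasted liver (9 counts) and at 1.22 CPM in 1 WT/Y657* refed liver (19 counts). Pdp2 stood at 58.2 CPM in 1 wild-type fed liver, where the next was at 45.0 CPM. The responses of 2 genes differed between genotypes by the test of the difference itself (edgeR): fasting for Pdk1 (log2 difference -1.18) and refeeding for Pdk2 (log2 difference 0.62).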

How the results depend on the processing

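No called result turned its direction under any alternative, while values that were not called could change sign, such as Pdk4 between genotypes in fasted mice (log2 0.05, and -0.24 with higher-numbered mice only). Counts below are members called, with the value of the fit to all mice in brackets. With library size alone, refeeding in WT/Y657* mice called 4 (2), adding Dlat and Dld. With lower-numbered fasted and refed mice only, the genotype comparison in fasted mice called 1 (3), refeeding in wild-type mice 2 (4) and the difference in refeeding responses 0 (1). With the higher-numbered only, the genotype comparison in fasted mice called 0 (3), fasting in WT/Y657* mice 3 (6), refeeding in WT/Y657* mice 1 (2), and each difference in responses 0 (1). These fits to 1 number series were chosen after seeing the data, and the higher series has a separate run of numbers for each state, which the series covariate treats as 1 block.

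Leaving out 1 mouse at a time gave 2 to 5 members for genotype in fasted mice, 3 to 4 for fasting in wild-type and 4 to 7 in WT/Y657* mice. It gave 4 to 5 for refeeding in wild-type and 2 to 5 in WT/Y657* mice, 1 for refed against fed in wild-type and 2 to 4 in WT/Y657* mice. The difference in fasting responses stayed at 1, that in refeeding responses was 0 to 1, and genotype in fed and refed mice stayed at 0. Of 300 such values for the 23 called member results, 285 stayed called and 15 did not; of 1260 for the 87 others, 21 became called.

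Over all genes, the genotype comparison in fed mice called 330, and 516 by the likelihood ratio test, 644 by DESeq2, 756 with library size alone, 207 without a filter and 30 with only its groups, and in refed mice 4, with 18, 25 and 12 by the likelihood ratio test, DESeq2 and the series covariate. The difference in fasting responses called 607, and 386 without a filter; that in refeeding responses 287, and 152. Leaving out 1 mouse moved these counts to as few as 68 and to more than 2 times 330 for genotype in fed mice, 1168 to 2003 (of 1821) in fasted and 1 to 6 in refed mice, and 124 to 391 for the difference in refeeding responses. With 1 number series alone, every comparison that was run (all but genotype in fed mice) called fewer genes. Examples were 784 (lower) and 77 (higher) of 1821 for genotype in fasted mice and 0 in refed mice. Library size alone moved the split between higher and lower by over 10 points in most comparisons, as for refeeding in WT/Y657* mice, with 3359 higher and 1239 lower against 2391 and 1980. With the longest transcript as length, the mean share of Pdk4 in kinase RPKM of fasted livers was 12.02% (wild-type) and 16.8% (WT/Y657*), in place of 16.3% and 21.99%.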
